A study of Mus musculus with 10 samples.

Results

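The 45 genes described here encode the proteins that copy DNA and make its precursors, and they were chosen by symbol as the licensing factors, the replicative helicase and its activators, the sliding clamp and its loader, the polymerases, the single-strand binding and Okazaki fragment enzymes, the deoxynucleotide enzymes, a chromatin assembly factor and the fork protection complex. All 45 had a row among the 22373 genes of the footprint table and all 45 passed the filter on low counts, at least 32 footprints in the libraries of some stage, which 13484 genes passed. Orc1, Pole2 and Clspn were under that minimum at P0, and Orc1 also at E15.5 and E17. These genes thus passed only through stages where their levels were higher. The table came from ribosome profiling (Ribo-seq), which sequences the mRNA fragments that ribosomes shield from nuclease, in the neocortex of wild-type CD-1 mice at the embryonic days labelled E12.5, E14, E15.5 and E17 and at birth (P0). Each of the 5 stages had 2 libraries, and each library was a pool of brains of both sexes, with more brains in the pools of younger stages. No genotype or drug distinguished the groups, so that age was the only labelled difference. Footprints count ribosomes on an mRNA, so they depend on both its amount and its ribosome load, and in a bulk sample fewer cells of a type and less RNA per cell cannot be told apart.

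Before a cell can copy its DNA, the origin recognition complex, Cdc6 and Cdt1 load the MCM2-7 helicase onto origins in G1, and geminin blocks reloading later in the cycle. In S phase Cdc45, the GINS complex and Mcm10 turn the loaded helicase into a moving fork, where primase and the polymerases copy both strands while PCNA, a ring placed by the clamp loader, holds the polymerases on the template. In the embryonic neocortex this machinery works in the radial glia that line the ventricle and in the intermediate progenitors beside them, whereas the neurons they produce have left the cycle.

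Many S-phase genes are textbook targets of the E2F transcription factors, whose binding motif is often written as TTTCCCGC, TTTCGCGC, TTTGCCGC or TTTGGCGC. RefSeq promoter windows (build GRCm38.p6, from 250 bases before to 50 after the start) were matched by symbol for 36 of the 45 genes, and 14 of these 36 (38.89%) held at least 1 of the 4 spellings on either strand, against 2.605% of 27025 genes with a window. Each stretch of 30 bases below is written in the direction of its gene, with the match in capitals, and the sites of licensing, helicase, polymerase and fork protection genes are shown because Cdc6, Orc1, Mcm3, Pole2 and Clspn were among the 10 genes under 10% of their E12.5 level at P0. The match is read on the opposite strand in all of them but Mcm6 and Mcm7, and it lies before the RefSeq start in Orc1, Cdc6, Mcm5 and Mcm6 and after it in Mcm3, Mcm7, Pole2 and Clspn.
Orc1, chr4:108579416-108579445, plus strand: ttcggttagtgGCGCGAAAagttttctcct
Cdc6, chr11:98908002-98908031, plus strand: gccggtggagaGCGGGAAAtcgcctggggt
Mcm3, chr1:20820275-20820304, minus strand: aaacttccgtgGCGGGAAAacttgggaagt
Mcm5, chr8:75109349-75109378, plus strand: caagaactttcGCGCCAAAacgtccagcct
Mcm6, chr1:128359734-128359763, minus strand: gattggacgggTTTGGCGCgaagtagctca
Mcm7, chr5:138171849-138171878, minus strand: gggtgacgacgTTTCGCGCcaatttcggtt
Pole2, chr12:69228162-69228191, minus strand: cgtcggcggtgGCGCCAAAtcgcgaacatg
Clspn, chr4:126556990-126557019, plus strand: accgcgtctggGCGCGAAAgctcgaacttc
The other genes with a match were Cdt1, Gins3, Rfc3, Pola1, Pold1 and Lig1. A CCAAT box (CCAAT, either strand) was found for 22 of the 36 genes (61.11%) against 41.06% of all genes with a window, and the CHR motif of mitotic genes (TTTGAA or TTCGAA, either strand) for 7 of the 36 (19.44%) against 21.66%. For 25 mitosis genes with a window, CHR was present in 19 (76%) and the E2F spellings in 2 (8%). A match shows only that these letters are present, and binding was not measured.

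The libraries held between 7544404 and 36129988 counts, with the lowest total in P0 replicate 1, and p-values measure the spread between pools. The SD of the log2 ratio between the 2 replicates, over the 45 genes, ranged from 0.145 to 0.197 before birth but reached 0.448 at P0, so that values at P0 were the least precise. Levels are given as CPM, the counts relative to a library size scaled by the trimmed mean of M values (TMM). Footprint density per coding length could not be computed, so levels are compared between stages and not between genes. Histone genes, whose symbols start with Hist, took 34.0% and 38.5% of all counts at E12.5 and 9.83% and 6.32% at P0. Without TMM, their decline raises the other genes: on total counts the median of all genes kept moved by 0.29 on the log2 scale between E14 and E15.5 and by 0.51 between E12.5 and P0.

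The summed footprint level of the 45 genes was lower at each later stage. It was 2645 and 2693 CPM at E12.5, then 2021 and 1943 at E14. By E15.5 these values were 1103 and 1106, by E17 750 and 727, and at birth 469.6 and 524. There was no overlap between adjacent stages. The P0 mean was 18.6% of the E12.5 mean. On raw counts the 45 genes held 0.225% and 0.218% of each library at E12.5 and 0.0572% and 0.0616% at P0.

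Each gene was tested with limma-voom at 4 steps between adjacent stages, and a gene was called where its p-value adjusted over all 13484 genes was under 0.05 and its change at least 0.32 on the log2 scale. From E12.5 to E14 the median change of the 45 genes was -0.44 on the log2 scale and 44 of 45 fitted changes were below 0, but only Mcm4 and Rrm2 were called lower (background of genes called lower, 0.141%). From E14 to E15.5, 39 of 45 were called lower (background 19.6%) and 0 higher (background 16.5%; at an unadjusted p under 0.05, 42 genes changed, and edgeR and DESeq2 also called 0 higher), with a median of -0.89. The 6 genes not called at this step were Orc6, Gins4, Rfc3, Prim1, Prim2 and Rrm1. From E15.5 to E17, 25 were called lower (background 3.43%, median -0.65), and from E17 to P0, 24 were (background 11.1%, median -0.63). At an unadjusted p under 0.05, 36, 42, 37 and 32 of the 45 changed at the 4 steps, all of them lower. Over all 13484 genes 2137, 6199, 3459 and 4839 did, of which 1020, 3265, 1508 and 2558 were lower. For the refits that follow, such counts over all genes were not made. Leaving out single libraries moved the count from E14 to E15.5 to between 31 and 41, and those of the other steps by more. From E12.5 to E14 there were 29 calls without either P0 library, 0 without any other single library (25 to 35 genes then had an unadjusted p under 0.05), 1 by edgeR and 8 by DESeq2. The count from E15.5 to E17 was 37 without either P0 library and 0 without any of the E15.5 or E17 libraries, when 30 to 33 of the 45 had an unadjusted p under 0.05. From E17 to P0 there were 7 calls without E17 replicate 1. With only the E17 and P0 libraries there were 0, when 24 had an unadjusted p under 0.05, against 23 by edgeR and 19 by DESeq2 on all libraries.

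From E12.5 to P0 all 45 genes were called lower (background 32%) and 0 higher (background 30.1%; edgeR and DESeq2 also called 0 higher), with a median of -2.73 against -0.01 for all genes kept. All 45 had an unadjusted p under 0.05, against 8946 of all 13484 genes. The fitted falls ran from 0.56 for Gins4 to 4.20 for Cdc6 on the log2 scale. A test of any change over the 5 stages called 45 of 45 (background 63.8%). In 33 genes both libraries of each stage lay below both of the stage before at all 4 steps (background 4.41%). The mean level was under 50% of that at E12.5 in 0 genes by E14, in 35 by E15.5, in 42 by E17 and in 43 by P0, the exceptions at P0 being Orc6 and Gins4, and it was under 10% at P0 in Orc1, Cdc6, Gmnn, Mcm2, Mcm3, Mcm10, Pole2, Tyms, Tk1 and Clspn.

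**Figure D1:**
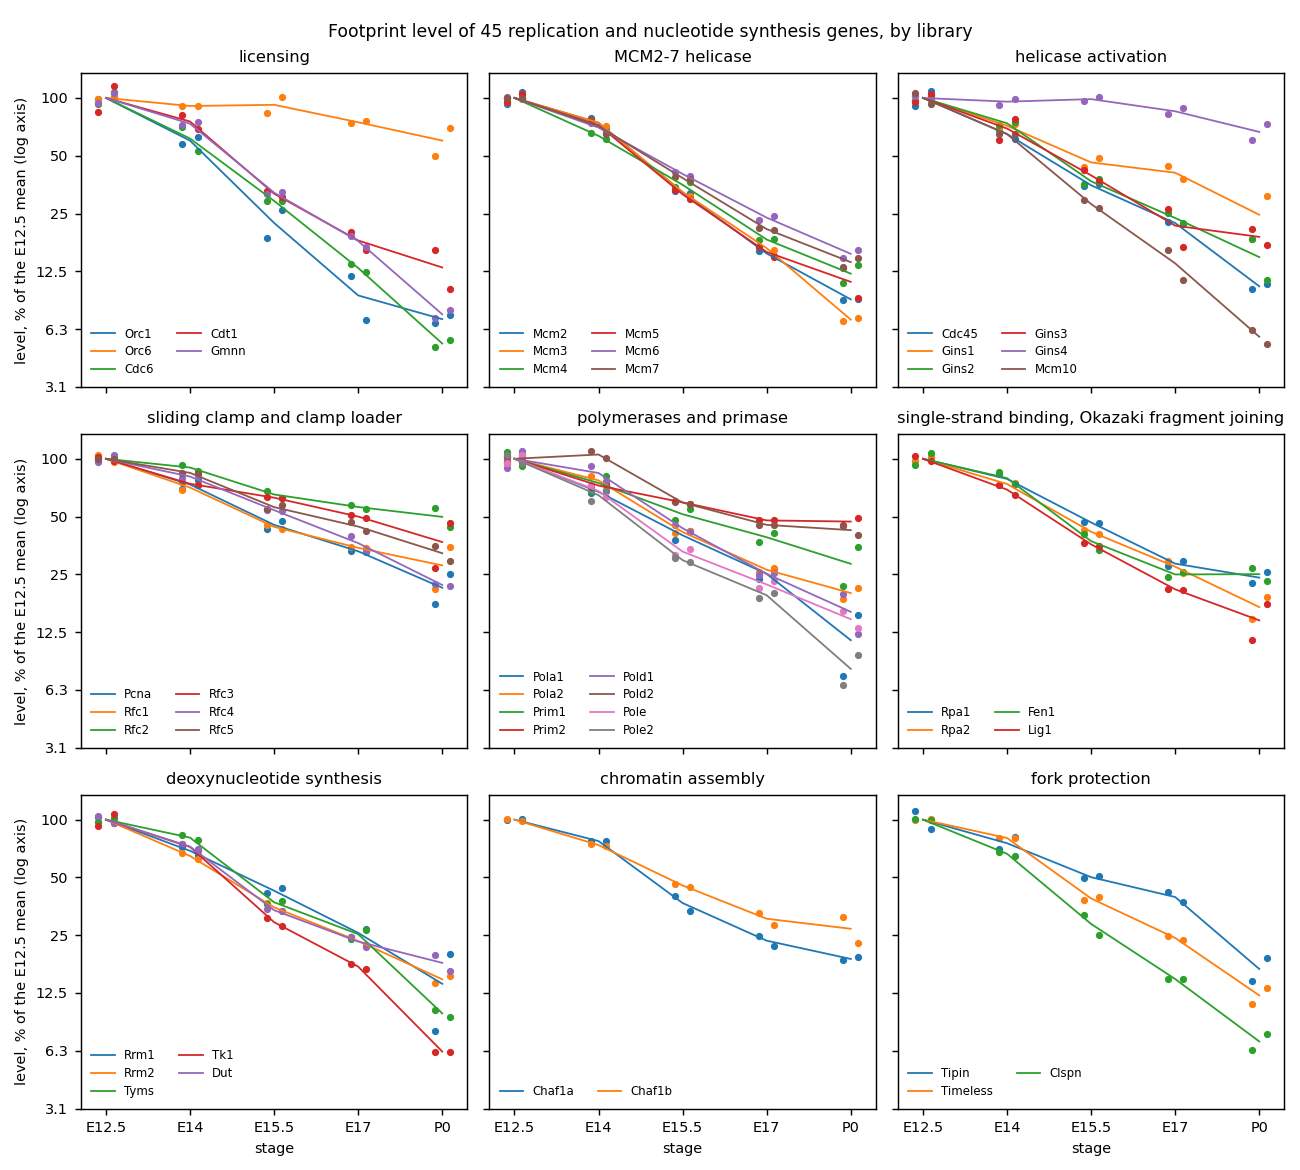
Footprint level of each of the 45 genes as percent of its E12.5 mean (y axis, log scale) at the 5 stages (x axis), in 9 panels by role, with 1 point for each library and a line through the stage means. Of the 45 lines 34 end under 25% at P0, while Orc6 and Gins4 remained at 60.0% and 66.5%.

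**Figure D2:**
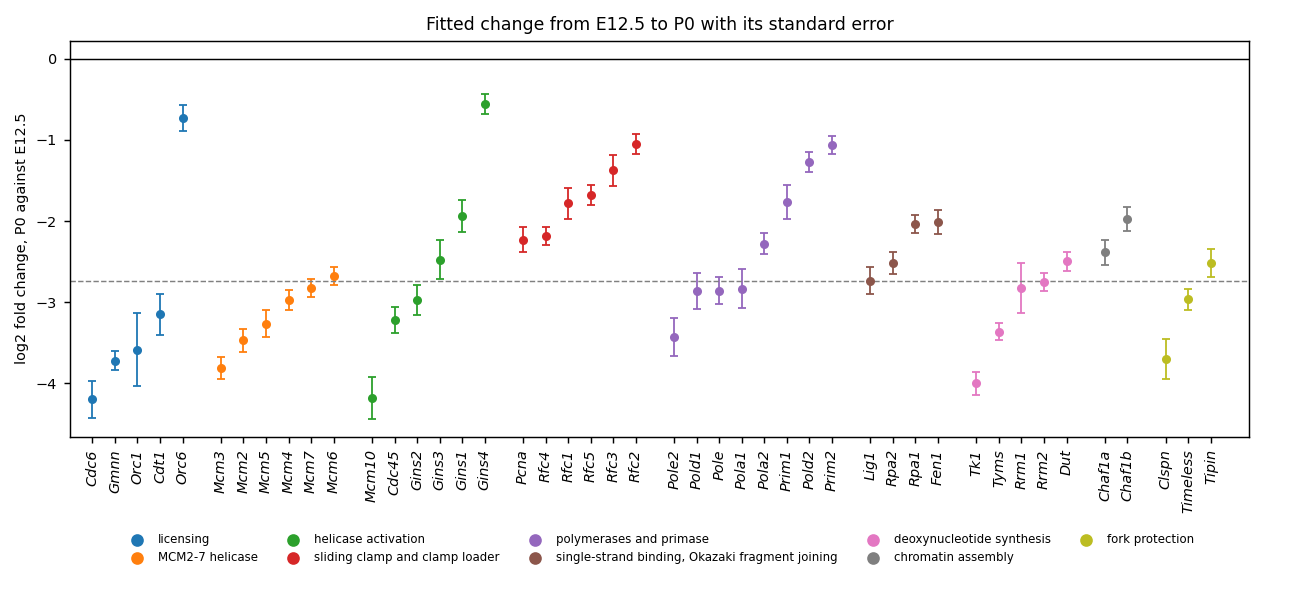
Fitted log2 fold change between E12.5 and P0 for each of the 45 genes (points) with its standard error (bars), grouped by role and ordered within each role. The dashed line marks the median of -2.73, and all points lie below 0.

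Whether the fall quickened was tested as the difference of 2 adjacent steps. The fall from E14 to E15.5 exceeded that from E12.5 to E14 in Pold2 (difference -0.89) and Tyms (-0.80), the 2 of 45 genes called, a share near that of all genes called in either direction (background 3.74%), and the fall from E15.5 to E17 differed from that of the step before in 0 (background 8.38%; 1 called by DESeq2 and 0 by edgeR, with 3 genes at an unadjusted p under 0.05, against 3411 of all 13484 genes). Both calls were lost when any one of the embryonic libraries was left out, and 11 genes were called without either P0 library. With all libraries and 2 a stage, a difference between the first 2 steps was not detectable for the other 43 genes after adjustment. The fitted difference was below 0 in 41 of the 45 genes, with a median of -0.40 against -0.02 for all genes kept. At an unadjusted p under 0.05 it was lower in 15 of the 45, against 1704 of all 13484 genes.

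Among the 5 licensing genes, Cdc6, Cdt1, Gmnn and Orc1 fell together and Orc6 stood apart. Cdc6, the ATPase that recruits the helicase with Cdt1, gave 23.9 and 27.7 CPM in the E12.5 libraries and 18.1 and 13.6 in those of E14. The E15.5 libraries held 7.50 and 7.51, those of E17 3.52 and 3.19, and those of P0 1.30 and 1.41. No stages of Cdc6 overlapped, and 5.25% of its E12.5 level was left at P0 (-4.20 on the log2 scale, SE 0.23, adjusted p 2.07e-06 by limma-voom), after a fall of 1.06 (SE 0.16, adjusted p 0.00133) between E14 and E15.5. Geminin (Gmnn), the inhibitor of Cdt1, gave 147 and 165 CPM at E12.5, then 112 and 117 at E14. Its level went on to 49.5 and 50.7 by E15.5, 29.9 and 26.2 by E17 and 11.1 and 12.2 by P0. The count ratio of Gmnn to Cdt1 was 11.6 and 9.66 at E12.5, 10.1 and 11.1 at E15.5, 10.01 and 10.9 at E17, and 4.64 and 8.11 at P0. Inhibitor and target thus kept a like ratio through E17, and at P0, where the Cdt1 counts were 22 and 63, both libraries lay lower.

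Orc1, the origin recognition subunit that is degraded and remade in each cycle, had few footprints, with 29 counts in the first E12.5 library and 1 and 5 in the P0 libraries. Its CPM was 1.59 and 1.64 at E12.5, 0.301 and 0.422 at E15.5, and 0.109 and 0.119 at P0, and its change between E12.5 and P0 was -3.58 (SE 0.45, limma-voom adjusted p 0.000198). Orc6, another subunit of the same complex, gave 63.7 and 65.1 CPM in the E12.5 libraries and 58.1 and 58.8 in those of E14. Values of 53.5 and 65.1 followed at E15.5, with 47.4 and 48.8 at E17 and 32.2 and 45 at P0. From E14 to E15.5 it was not called (0.01 on the log2 scale, SE 0.15, adjusted p 0.973 by limma-voom, with a sign that changed with the scaling), and its libraries overlapped. Between E12.5 and P0 Orc6 was lower by 0.73 (SE 0.16, adjusted p 0.00416), a call that total counts without TMM did not give (adjusted p 0.27).

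All 6 subunits of the MCM2-7 helicase fell between E12.5 and P0. Mcm3, the subunit with the largest fall, gave 40.9 and 44.7 CPM at E12.5, then 33.2 and 30.4 at E14. It then stood at 14.5 and 13.2 by E15.5, at 7.17 and 6.94 by E17, and at 2.94 and 3.05 by birth. Mcm6, with the smallest fall, gave 89.1 and 87.7 CPM in the E12.5 libraries and 65.8 and 58.2 in those of E14. By E15.5 these values were 36.4 and 34.7, by E17 20.5 and 21.5, and at birth 12.9 and 14.3. No 2 stages overlapped in either gene. Mcm3 kept 7.0% of its E12.5 level (-3.81 on the log2 scale, SE 0.13, adjusted p 4.84e-07 by limma-voom) and Mcm6 15.4% (-2.68, SE 0.11, adjusted p 6.53e-07), and between E14 and E15.5 they fell by 1.19 (SE 0.10, adjusted p 0.000144) and 0.80 (SE 0.10, adjusted p 0.000622). The 6 log2 changes had an SD of 0.084 over subunits from E12.5 to E14, 0.19 from E14 to E15.5, 0.10 from E15.5 to E17 and 0.26 from E17 to P0, and one of 0.43 over the whole span from E12.5 to P0, the same as for the 5 clamp loader subunits. All 6 subunits were called lower at each of the last 3 steps (background 19.6%, 3.43% and 11.1%). The calls from E15.5 to E17 were lost when any library of those stages was left out. From E17 to P0 all 6 calls were lost in the fit to only the libraries of those stages. That of Mcm5 at this step (adjusted p 0.0485 by limma-voom) was lost in 18 alternatives, edgeR and DESeq2 among them, and those of the others in 1 to 9. The count ratio of Mcm6 to Mcm3 was 2.18 and 1.96 at E12.5 and 4.41 and 4.69 at P0, and the 2 genes were picked for this difference. Mcm4 was the only subunit called from E12.5 to E14, at 32.9 CPM in both E12.5 libraries and 21.7 and 20.1 at E14. This call (adjusted p 0.0423 by limma-voom) was lost in 11 alternatives. All 6 subunits had an unadjusted p under 0.05 at this step (2137 of all 13484 genes did), with changes from -0.66 to -0.43.

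Of the 6 helicase activation genes, Mcm10 fell most and Gins4 least. Mcm10, which binds the helicase as it starts to move, gave 13.1 and 11.5 CPM at E12.5, then 8.04 and 7.95 at E14. The E15.5 libraries held 3.61 and 3.29, those of E17 2.0 and 1.39, and those of P0 0.761 and 0.644. It kept 5.70% of E12.5 (-4.18 on the log2 scale, SE 0.26, adjusted p 3.87e-06 by limma-voom; E14 to E15.5 -1.20, SE 0.16, adjusted p 0.000783). Gins4 is one of the 4 GINS subunits, which form a single complex with Cdc45 and the helicase. It gave 21.7 and 20.6 CPM in the E12.5 libraries and 19.6 and 20.9 in those of E14. Its level went on to 20.4 and 21.4 by E15.5, 17.4 and 18.7 by E17 and 12.7 and 15.46 by P0. The first 3 stages of Gins4 overlapped (E14 to E15.5 0.04, SE 0.11, adjusted p 0.814, with a sign that changed when single libraries were left out), and both P0 libraries were below all others. Its change between E12.5 and P0 was -0.56 (SE 0.12, limma-voom adjusted p 0.00382), which was not called on total counts (adjusted p 0.829) or with only the E12.5 and P0 libraries (0.0602). Gins2 gave 17.2 and 18.4 CPM at E12.5, then 12.9 and 13.3 at E14. Values of 6.33 and 6.75 followed at E15.5, with 4.44 and 3.98 at E17 and 3.26 and 2.0 at P0. The count ratio of Gins4 to Gins2 went from 1.27 and 1.12 at E12.5 to 3.22 and 3.17 at E15.5 and to 3.90 and 7.71 at P0, and this pair was picked for its difference from E12.5 to P0. Gins1 and Gins3 kept 24.6% and 18.9% of their E12.5 levels, and Cdc45 10.4%.

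**Figure D3:**
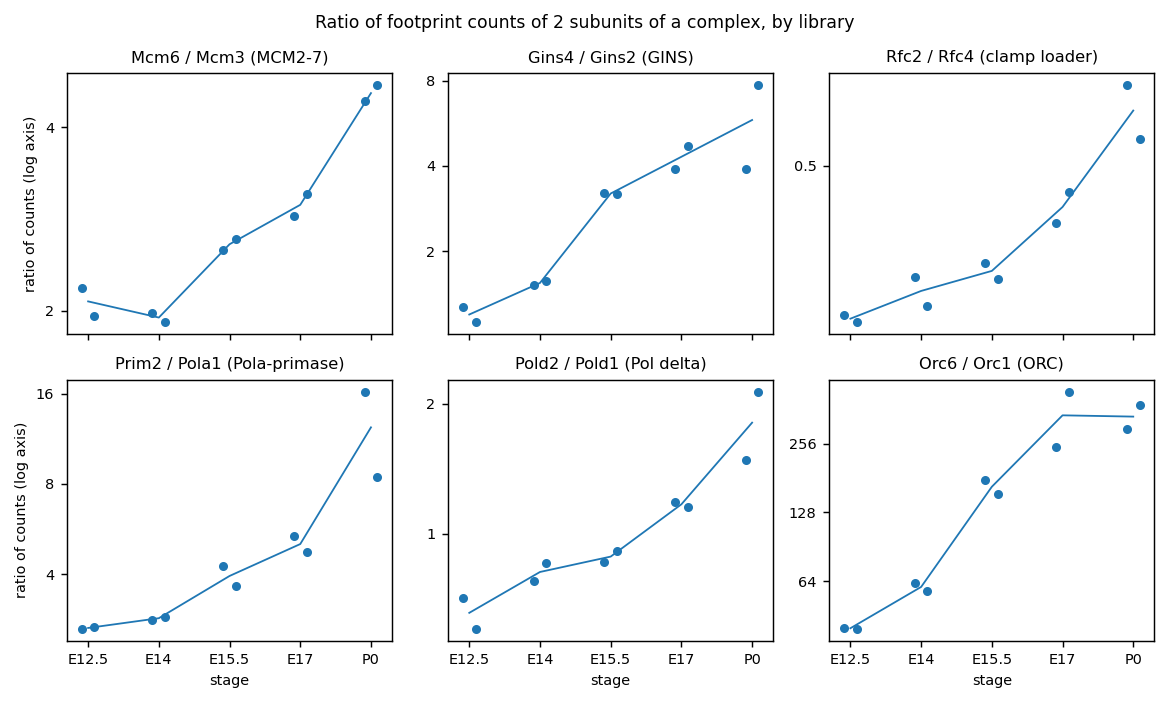
Ratio of the footprint counts of 2 subunits of a complex (y axis, log scale) in each library (points) at the 5 stages (x axis), with a line through the stage means. The 6 pairs were picked as the least and most reduced subunits from E12.5 to P0, so that a higher ratio at P0 follows from the choice. In each pair both P0 ratios were above both E12.5 ratios. They went from 39.9 and 39.6 to 296 and 377 for Orc6 to Orc1. The Orc1 counts at P0 were only 1 and 5, so that the size of this ratio is uncertain.

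The clamp and its loader kept larger parts of their levels than the helicase. PCNA gave 291 and 283 CPM in the E12.5 libraries and 199 and 223 in those of E14. It then stood at 124 and 136 by E15.5, at 95.1 and 93.9 by E17, and at 50.4 and 71.6 by birth. PCNA kept 21.3% (-2.23 on the log2 scale, SE 0.15, adjusted p 6.72e-06 by limma-voom; E14 to E15.5 -0.70, SE 0.15, adjusted p 0.00753, a call lost without E14 replicate 2 or E15.5 replicate 1, with adjusted p 0.0575 and 0.0632). The count of Pcna was within 5% of that of its pseudogene Pcna-ps2 in every library, so that reads may be split or counted at both and its values are uncertain. The clamp loader opens the PCNA ring and has Rfc1 as its large subunit and Rfc2 to Rfc5 as the small ones. Rfc4 gave 102 and 111 CPM at E12.5, 57.7 and 57.1 at E15.5, 42.1 and 35.2 at E17, and 23.6 and 23.2 at P0. Rfc2, with the smallest fall of the role, gave 28.3 and 30.1 CPM at E12.5, then 27.2 and 25.3 at E14. By E15.5 these values were 19.7 and 18.3, by E17 16.8 and 15.9, and at birth 16.2 and 12.9. It kept 49.8% (-1.05 on the log2 scale, SE 0.13, adjusted p 0.000164 by limma-voom; E14 to E15.5 -0.46, SE 0.12, adjusted p 0.0185, a call lost on total counts and without any one library of those stages, with adjusted p 0.0544 to 0.3000), and its E17 and P0 libraries overlapped. Rfc1, Rfc3, Rfc4 and Rfc5 kept 27.8%, 36.8%, 22% and 32.2%.

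The 8 polymerase and primase genes spanned a wide range. Pole2, the second subunit of the leading strand polymerase epsilon, gave 6.87 and 6.24 CPM in the E12.5 libraries and 3.97 and 4.50 in those of E14. The E15.5 libraries held 1.99 and 1.90, those of E17 1.24 and 1.31, and those of P0 0.435 and 0.620. It kept 8.04% of E12.5 (-3.43 on the log2 scale, SE 0.23, adjusted p 6.35e-06 by limma-voom; E14 to E15.5 -1.12, SE 0.15, adjusted p 0.000768). The catalytic subunits Pole, Pold1 and Pola1 kept 14.6%, 15.9% and 11.3%. Prim2, the large primase subunit, which helps Prim1 lay down RNA primers, gave 16.1 and 15.2 CPM at E12.5, then 11.1 and 11.6 at E14. Its level went on to 9.46 and 9.07 by E15.5, 7.46 and 7.47 by E17 and 7.07 and 7.66 by P0. Its level fell between E12.5 and P0 by 1.06 (SE 0.11, adjusted p 5.32e-05), to 47.1%, with E17 and P0 libraries that overlapped, and it was not called between E14 and E15.5 (-0.29 on the log2 scale, SE 0.10, adjusted p 0.0531 by limma-voom). Pold2, the accessory subunit of the lagging strand polymerase delta, gave 10.2 and 10.7 CPM in the E12.5 libraries and 11.4 and 10.5 in those of E14. Values of 6.23 and 6.08 followed at E15.5, with 4.70 and 4.73 at E17 and 4.68 and 4.17 at P0. It was the only one of the 45 with a fitted change above 0 from E12.5 to E14 (0.07, SE 0.11, adjusted p 0.815), and then fell by 0.82 (SE 0.11, adjusted p 0.000827). Pola1, the catalytic subunit that extends the primers of Prim1 and Prim2, had 4 and 38 counts at P0, and the ratio of Prim2 to Pola1 went from 2.63 and 2.66 to 16.3 and 8.45. These 2 genes were also picked for their difference from E12.5 to P0.

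Single-strand binding and Okazaki fragment genes fell by 2.01 to 2.73 on the log2 scale between E12.5 and P0. Lig1, the ligase that seals the fragments, gave 69.2 and 65.2 CPM at E12.5, then 49.1 and 43.7 at E14. It then stood at 24.5 and 23.7 by E15.5, at 14.1 and 14 by E17, and at 7.61 and 11.7 by birth. It kept 14.4% of E12.5 (-2.73 on the log2 scale, SE 0.17, adjusted p 3.84e-06 by limma-voom; E14 to E15.5 -0.94, SE 0.15, adjusted p 0.00219). Fen1, the nuclease that trims the flaps before ligation and also acts in base excision repair, gave 113 and 131 CPM in the E12.5 libraries and 104 and 89.8 in those of E14. By E15.5 these values were 49.7 and 41.1, by E17 29.4 and 31.5, and at birth 32.9 and 28.2. Its level fell between E14 and E15.5 (-1.09 on the log2 scale, SE 0.14, adjusted p 0.000676 by limma-voom), but its E17 and P0 libraries overlapped, and it kept 25.1% of E12.5 (-2.01, SE 0.14, adjusted p 8.36e-06). Rpa1 and Rpa2, the larger subunits of the protein that coats unwound DNA, kept 24.0% and 16.9%.

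The 5 deoxynucleotide genes kept between 6.19% and 17.9%. Thymidine kinase 1 (Tk1), which salvages thymidine in S phase, gave 40.8 and 47.0 CPM at E12.5, then 32.6 and 30.7 at E14. The E15.5 libraries held 13.5 and 12.2, those of E17 7.75 and 7.32, and those of P0 2.72 in both libraries. Its fall was 4.00 (SE 0.14, limma-voom adjusted p 5.06e-07), of which 1.30 (SE 0.11, adjusted p 0.00014) came between E14 and E15.5. Thymidylate synthase (Tyms), which makes dTMP, gave 172 and 181 CPM in the E12.5 libraries and 146 and 138 in those of E14. Its level went on to 64.3 and 66.4 by E15.5, 42.3 and 46.9 by E17 and 18.0 and 16.4 by P0. Dut, which removes dUTP and yields the substrate of Tyms, gave 329 and 303 CPM at E12.5, then 236 and 221 at E14. Values of 108 and 105 followed at E15.5, with 77.6 and 68.8 at E17 and 62.1 and 51.3 at P0. No stages overlapped in these 3 genes, and Dut fell by 2.50 (SE 0.12, limma-voom adjusted p 1.21e-06) in all and by 1.10 (SE 0.12, adjusted p 0.000295) between E14 and E15.5.

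Ribonucleotide reductase makes deoxynucleotides from ribonucleotides and pairs the large subunit Rrm1 with the S-phase subunit Rrm2 or with Rrm2b, which serves cells outside S phase. Rrm2 gave 123 and 129 CPM in the E12.5 libraries and 84.3 and 78.9 in those of E14. It then stood at 46.2 and 41.9 by E15.5, at 30.7 and 28.1 by E17, and at 17.7 and 19.4 by birth. With Mcm4 it was called lower at all 4 steps, though the call at the first step was lost without any one embryonic library. The calls of both genes from E15.5 to E17 were lost without any one library of those stages. From E17 to P0 the call of Rrm2 was lost in 3 alternatives and that of Mcm4 in 9. Rrm1 gave 109.7 and 102 CPM at E12.5, then 76.5 and 69.5 at E14. By E15.5 these values were 43.8 and 46.6, by E17 26.0 and 28.6, and at birth 8.37 and 21.2. The P0 libraries of Rrm1 lay far apart, with 77 and 890 counts, and it was called at none of the single steps.

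Rrm2b and Tk2, which work outside S phase, rose. Rrm2b gave 9.24 and 8.82 CPM in the E12.5 libraries and 10.4 and 12.8 in those of E14. The E15.5 libraries held 15.0 and 12.2, those of E17 15.4 and 18.1, and those of P0 14.5 and 20.8. It rose by 0.99 (SE 0.21, limma-voom adjusted p 0.00306) from E12.5 to P0. Tk2, the mitochondrial thymidine kinase, gave 13.3 and 13.6 CPM at E12.5, then 21.5 and 18.2 at E14. Its level went on to 29.7 and 26.0 by E15.5, 29.6 and 28.4 by E17 and 51.0 and 36.5 by P0. It rose by 1.66 (SE 0.17, adjusted p 6.53e-05). The count ratio of Rrm2b to Rrm2 went from 0.0751 and 0.0682 at E12.5 to 0.816 and 1.07 at P0, and that of Tk2 to Tk1 from 0.325 and 0.289 to 18.8 and 13.4. Both belong to the list of 10 genes for deoxynucleotide supply outside S phase and turnover. Of these, 6 were called lower (background 32%) and 2 higher (background 30.1%), with a median of -0.54.

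**Figure D4:**
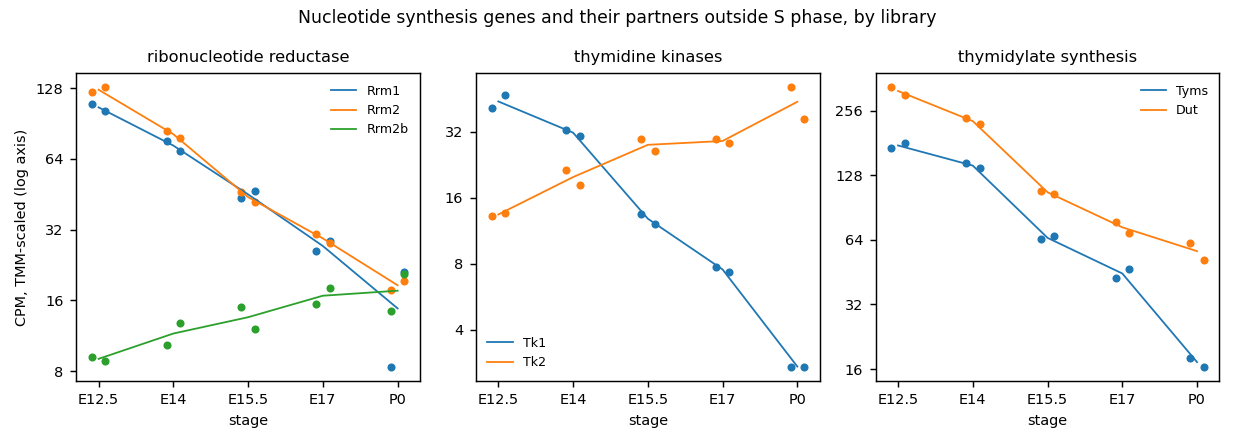
CPM (y axis, log scale) of deoxynucleotide genes in each library (points) at the 5 stages (x axis), with lines through the stage means. Rrm2 and Tk1 descend while Rrm2b and Tk2 rise, and Tyms and Dut descend together.

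Chaf1a and Chaf1b, subunits of the CAF-1 complex that places histones on new DNA, kept 18.8% and 27.0%. Chaf1a gave 10.5 and 10.7 CPM in the E12.5 libraries and 8.21 and 8.17 in those of E14. Values of 4.25 and 3.55 followed at E15.5, with 2.63 and 2.33 at E17 and 1.96 and 2.03 at P0. Its log2 fold change was -2.39 (SE 0.15, limma-voom adjusted p 4.48e-06), and that from E14 to E15.5 was -1.06 (SE 0.13, adjusted p 0.000506). Chaf1b gave 27.1 and 26.4 CPM at E12.5, 12.4 and 11.9 at E15.5, and 8.37 and 6.08 at P0 (-1.98 on the log2 scale, SE 0.15, adjusted p 1.14e-05 by limma-voom; E14 to E15.5 -0.70, SE 0.14, adjusted p 0.00532, a call lost on total counts, with adjusted p 0.0511). Of the fork protection genes, Clspn, which relays stalled forks to the checkpoint kinase Chk1, fell most. It gave 6.93 and 6.80 CPM at E12.5, then 4.68 and 4.44 at E14. It then stood at 2.20 and 1.73 by E15.5, at 1.02 and 1.01 by E17, and at 0.435 and 0.525 by birth. Its counts at P0 were 4 and 22 (-3.70 on the log2 scale, SE 0.25, adjusted p 5.63e-06 by limma-voom; E14 to E15.5 -1.19, SE 0.15, adjusted p 0.000598). Tipin, which holds the fork with Timeless, gave 45.1 and 36.5 CPM in the E12.5 libraries and 28.5 and 32.9 in those of E14. By E15.5 these values were 20.3 and 20.6, by E17 17.1 and 15.2, and at birth 5.87 and 7.73. It kept 16.7% (-2.51 on the log2 scale, SE 0.17, adjusted p 6.24e-06 by limma-voom; E14 to E15.5 -0.59, SE 0.15, adjusted p 0.0167, a call lost on total counts and without E14 replicate 2 or either E15.5 library, with adjusted p 0.0761 to 0.164). Much of the fall of Tipin came after E17, where the level dropped by 1.19 on the log2 scale (SE 0.17, adjusted p 0.00394), while Timeless kept 12.1%.

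By promoter, the 14 genes with an E2F spelling had a median change from E12.5 to P0 of -3.00 (range -4.20 to -1.37), the 22 with a window and no match one of -2.33 (range -4.18 to -0.73), and the 9 with no window in the table one of -2.51. The ranges overlapped over most of their length. Mcm10, Tk1 and Tyms, each under 10% at P0, held none of the 4 spellings in their windows, whereas Rfc3, which kept 36.8%, held one. Of the deoxynucleotide genes 0 of 5 held a match, and of the MCM2-7 genes 4 of the 5 with a window did.

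Other replication genes, a list of 30 that held the remaining origin recognition, polymerase and fork subunits, fell less and less uniformly. Between E12.5 and P0, 25 were called lower (background 32%) and 1 higher (background 30.1%), with a median of -1.53. Between E14 and E15.5, 13 were called lower (background 19.6%) and 0 higher (background 16.5%), with a median of -0.41. Asf1b, a histone chaperone of dividing cells, had the largest fall (-4.13 on the log2 scale, SE 0.20, adjusted p 1.17e-06 by limma-voom), from 11.8 and 12.49 CPM at E12.5 to 0.870 and 0.644 at P0. Pole4, a histone-fold subunit of polymerase epsilon, was the one called higher (0.50, SE 0.12, adjusted p 0.00663), with 55.9 and 52.6 CPM at E12.5 and 69.8 and 82.5 at P0. Orc3, Orc4, Cdc7 and Pold4 were not called, and the first 3 of these, with fitted changes of -0.42, -0.47 and -0.37, changed sign on total counts. In the origin recognition complex Orc2 fell by 1.73 (SE 0.31, adjusted p 0.00135), so that the subunits ran from -3.58 for Orc1 to -0.41 for Orc5, whose sign also changed on total counts.

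Genes that build purine and pyrimidine rings, which serve RNA as well as DNA, moved less than the deoxynucleotide genes. Of 22, 15 were called lower (background 32%) and 1 higher (background 30.1%) between E12.5 and P0. The median was -0.74 against -2.83 for the 5 deoxynucleotide genes. Between E14 and E15.5, 10 were called lower (background 19.6%) and 1 higher (background 16.5%). Shmt1, a folate cycle enzyme, had the largest fall (-2.18 on the log2 scale, SE 0.18, adjusted p 2.07e-05 by limma-voom) and Impdh1, an isozyme of the first step to GMP, the rise (1.33, SE 0.14, adjusted p 5.89e-05), while Impdh2 fell by 1.05 (SE 0.09, adjusted p 2.32e-05). Several of the smaller changes turned sign on total counts, among them those of Adsl, Atic, Gmps and Prps1.

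**Figure D5:**
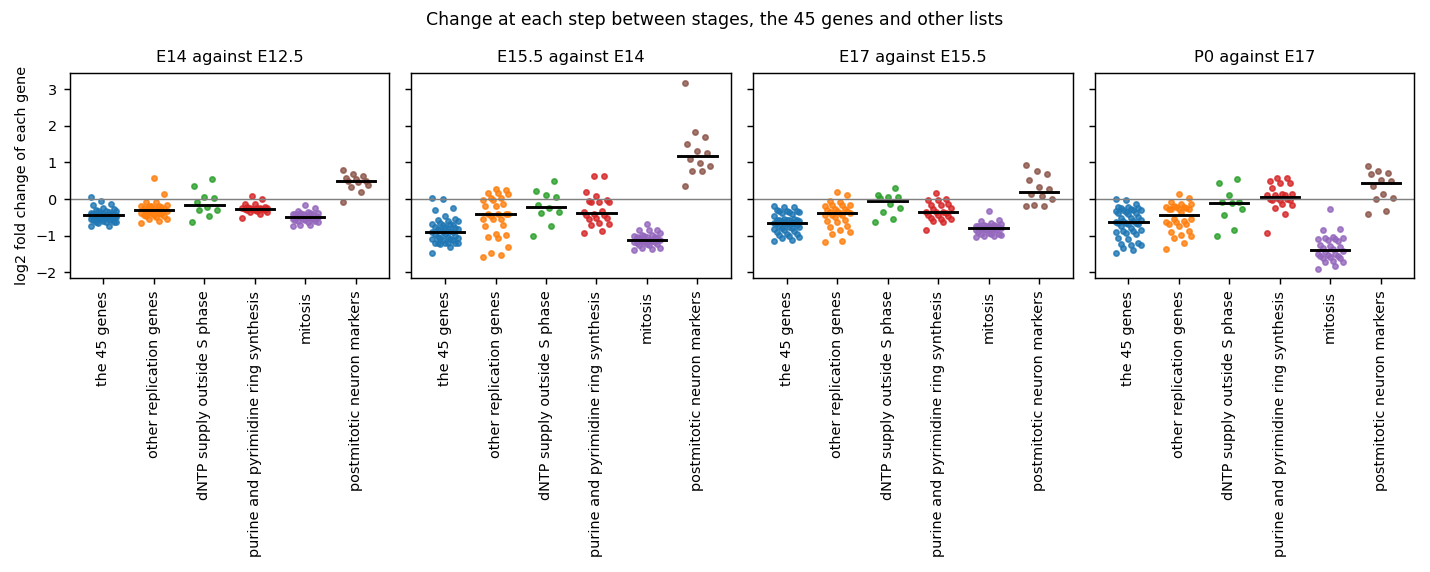
Log2 fold change of each gene (points) at the 4 steps between stages (panels) for the 45 genes and 5 other lists, with the median of each list as a black line. The 45 genes and the mitosis genes lie below 0 at each step, with few exceptions, and the medians from E14 to E15.5 are -0.89 and -1.11.

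Mitosis genes, the other arm of the cell cycle, fell further than the replication genes. Between E12.5 and P0 all 30 were called lower (background 32%), with a median of -3.77. Their changes ran from -4.62 for Bub1b (SE 0.22, limma-voom adjusted p 1.19e-06) to -2.65 for Mad2l1 (SE 0.16, adjusted p 3.29e-06), both parts of the spindle checkpoint. At the last step, E17 to P0, the median was -1.40 for mitosis genes and -0.63 for the 45 genes, whereas at the first it was -0.48 and -0.44. The summed level of the mitosis genes at P0 was 7.63% of that at E12.5, against 18.6% for the 45. The difference between the lists was not tested, since genes are not replicates. Of 18 E2F family and S-phase entry genes, 16 were called lower (background 32%) and 1 higher (background 30.1%), with a median of -2.13. E2f2 fell most (-3.87 on the log2 scale, SE 0.62, adjusted p 0.000776 by limma-voom) and Rbl2, a pocket protein of resting cells, rose by 0.70 (SE 0.14, adjusted p 0.00212).

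Markers of cell types also changed between stages, but not all at the same steps as the 45 genes. Over all genes kept, 32% were called lower and 30.1% higher from E12.5 to P0, and 19.6% and 16.5% from E14 to E15.5. Of 12 postmitotic neuron markers 12 were called higher from E12.5 to P0, with a summed level of 2385 and 2326 CPM at E12.5 and 8636 and 9872 at P0. Of 6 intermediate progenitor markers 6 were called lower. Their summed level went from 252 and 305 CPM (E12.5) up to 355 and 319 (E14), unlike that of the 45 genes, and then down to 173 and 155 (E15.5) and to 34.4 and 21.9 (P0). Of 11 radial glia markers 9 were called lower and 2 higher, and their summed level, which a few abundant genes set, was 2343 and 2287 CPM at E12.5, 2394 and 2518 at E17, and 1469 and 2003 at P0. At the step from E14 to E15.5, 9 of the 11 were called lower and 1 higher (median -1.01 on the log2 scale). Of the 6 intermediate progenitor markers 5 were called lower there (median -1.25), and all 12 postmitotic neuron markers were called higher (median 1.18). Between E14 and E15.5, where most of the 45 genes were called, all 10 markers of meningeal fibroblasts (summed level 322 and 323 CPM, then 34.6 and 37.1), all 8 choroid plexus markers with enough counts (1167 and 1174, then 15.1 and 12.2), all 8 endothelial markers (27.6 and 35.4, then 9.64 and 8.27) and 5 of 8 microglia markers (30.2 and 31.8, then 25.6 and 19.5) were called lower, and 6 of 10 ganglionic eminence markers were called higher (56.9 and 48.7, then 137 and 135). Of 9 glial markers 7 were called higher and 1 lower from E12.5 to P0, with a summed level of 10.3 and 12.1 CPM, then 126 and 93.6. Between E14 and E15.5, red blood cell markers went from 11052 and 10038 CPM to 7419 and 6903. These tissues hold dividing cells of their own, and their part in the fall of the replication genes at this step was not tested. The summed levels of choroid plexus (355 and 294 CPM) and microglia markers (27.8 and 28.5) at E12.5 were below those of E14. Those of meningeal fibroblast (399 and 419 CPM), endothelial and red blood cell markers (11210 and 11603) at E12.5 were above those of E14. The summed level of the 45 genes was also higher at E12.5 than at E14. Neocortex markers, 8 in all, were present throughout, with a sum of 613 and 654 CPM at E12.5, 960 and 947 at E15.5 and 676 in both P0 libraries. Of the 8, 3 were called lower and 2 higher from E12.5 to P0, with changes from -2.82 to 4.07 on the log2 scale.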

How the data were processed

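The authors digested neocortex lysates with RNase T1 and RNase A, sequenced fragments from monosomes, removed adapters, duplicates and contaminant sequences, and aligned to the mouse genome with STAR and GENCODE M12 genes. The table deposited by the authors gives, for each Ensembl gene, its footprint count as an integer, and which step of the authors' pipeline wrote it is not given in the sources used here. The alignment settings allowed reads with several alignments, and how these were counted is not given in the sources used here. Of 22373 identifiers, 22274 were given symbols from RefSeq and NCBI names.

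A gene was kept where the libraries of any one stage together held 32 footprints or more. TMM scaling (edgeR 4.0.16) and limma-voom (limma 3.58.1, R 4.3.3) were fitted to all 10 libraries with 1 coefficient for each stage, with Benjamini-Hochberg adjustment over 13484 genes. The study also used limma and voom, on length-corrected counts, and its methods do not name TMM. Two-sided exact permutation of 2 against 2 libraries cannot go below p = 0.33333, so no single-gene permutation test was made. The procedure was tested on simulated data. The alternatives were total counts, DESeq2 (1.42.0) size factors, library sizes without Hist genes, no filter, edgeR's quasi-likelihood test, the DESeq2 Wald test, library weights, a replicate block, a fit to only the stages compared, and each library left out. The named genes with full statistics were the most and least reduced of each role and the largest fall and rise of each list, of which 1 is not reported here. The members and lists were chosen with earlier results of these data known. Of the 45 genes, 12 overlap another protein-coding gene in RefSeq, and strand use in counting is not given in the sources used here.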

Additional observations from a re-analysis of the deposited data

Results flagged for a closer look

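Pold2 and Tyms were called for a larger fall from E14 to E15.5 than from E12.5 to E14, 2 of 45 genes, a share near the 3.74% called over all genes. The fitted difference was below 0 in 41 of the 45, with a median of -0.40. The difference of the 2 steps was -0.89 on the log2 scale for Pold2 and -0.80 for Tyms, tested as a contrast in the limma-voom fit. Pold2 had no fall at the first step, with 10.2 and 10.7 CPM at E12.5 and 11.4 and 10.5 at E14, and Tyms went from 172 and 181 CPM to 146 and 138. Each of these calls was lost in 12 of the 19 alternatives, with adjusted p from 0.0676 to 0.242 for Pold2 and from 0.0541 to 0.245 for Tyms. No group held enough libraries to test for one that stood apart.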

How the results depend on the processing

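All 45 genes stayed called lower between E12.5 and P0 with each library left out, and 43 on total counts. From E14 to E15.5 between 31 and 41 of the 45 were called lower in every alternative, and 1 was called higher on total counts (0 with any library left out). Total counts moved the median of the 45 genes to -0.59 at this step and to -2.21 between E12.5 and P0, which are -0.88 and -2.72 once the median over all genes is subtracted, and with single libraries left out these medians ran from -0.96 to -0.83 and from -2.74 to -2.57. From E12.5 to E14 the count called lower was 0 without the filter, 1 with edgeR, 8 with DESeq2, 23 with library weights, 0 with the replicate block, 0 with only the libraries of the stages compared, and 0 to 29 with single libraries left out (29 without either P0 library). From E15.5 to E17 it was 39 with library weights, 39 with only those stages and 0 to 37 with single libraries left out, and from E17 to P0 it was 5, 0 and 7 to 30. For the difference of the first 2 steps the count lower was 0 on total counts, 0 without the filter, 1 with edgeR, 9 with library weights, 7 with only those stages, 0 with the replicate block and 0 to 11 with single libraries left out. For the next difference the count higher was 1 with DESeq2, 4 with library weights, 2 with only those stages and 0 to 2 with single libraries left out. The cause of these shifts was not tested. Same-numbered libraries did not deviate the same way at all stages, with correlations from -0.64 (E12.5 and P0) to 0.43 (E15.5 and P0). Whether the replicate numbers mark a shared batch is not given in the labels. The replicate block changed no other count by more than 1.5 times. Of 4313 refitted values of single genes 26 changed sign, all of small size. From E14 to E15.5 these were Orc6 with DESeq2 size factors (-0.0060) and library weights (-0.00060), Rfc3 and Prim2 on total counts (0.055 and 0.0034), and, with single libraries left out, Orc6 (-0.13 to 0.16) and Gins4 (-0.010 to 0.087). From E17 to P0, Prim2 was 0.11 on total counts, 0.032 with DESeq2 size factors, 0.0021 with library sizes without Hist genes and 0.028 with the DESeq2 test, and Fen1 was 0.097, 0.020 and 0.032, and 0.025 with library weights. With single libraries left out at that step, Prim2 ran from -0.041 to 0.037, Fen1 from -0.11 to 0.15, Orc1 from -0.59 to 0.063, Gins3 from -0.56 to 0.098, Rfc1 from -0.68 to 0.020, Rfc2 from -0.34 to 0.018, Pold2 from -0.17 to 0.030 and Chaf1b from -0.42 to 0.074. Depth limits Orc1, Pola1, Pole2 and Clspn at P0 replicate 1, with 1 to 4 counts each.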
